A study of Homo sapiens with 6 samples.

Results

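The genes followed here are 10 readouts and regulators of the canonical Wnt pathway, chosen by symbol: CTNNB1, AXIN2, DKK1, LGR5, RNF43, ZNRF3, NKD1, TCF7, LEF1 and ASCL2. All 10 were found among the 57905 genes of the count matrix, and 7 of them passed the filter on low counts. Their RNA was measured in HCT116 cells, a human colon cancer line with wild-type p53, after treatment with 10 µM Nutlin-3a, an inhibitor that blocks the binding of p53 to its antagonist HDM2 and thereby activates p53. Cells given the vehicle DMSO (Nut 0h) were compared with cells after 1 h (Nut 1h) and 10 h (Nut 10h) of Nutlin-3a, each condition in 2 biological replicates (6 libraries). All groups came from this single cell line, and the labels do not say how the cultures of a condition were separated, so that p-values measure the spread between these libraries.

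In the canonical Wnt pathway, a secreted Wnt ligand binds a Frizzled receptor and its LRP co-receptor, the destruction complex that marks beta-catenin for degradation is held off, and beta-catenin, the product of CTNNB1, enters the nucleus and switches on genes together with TCF and LEF factors. Several of these target genes act back on the pathway: DKK1 captures the co-receptors, RNF43 and ZNRF3 remove Frizzled from the cell surface, AXIN2 scaffolds the destruction complex and NKD1 binds Dishevelled. In the intestine the pathway maintains the stem cells at the crypt base, of which LGR5 and ASCL2 are markers. HCT116 cells carry a stabilizing mutation of beta-catenin.

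The counts summed to between 26068076 and 35473485 per library, and 16565 genes were tested. CDKN1A, the p53 target that encodes the cell cycle inhibitor p21, was 14.32-fold higher in Nut 10h than in Nut 0h (log2 fold change 3.84, SE 0.11, adjusted p = 1.03e-10), and MDM2, the p53 target whose product Nutlin-3a binds, was 4.56-fold higher already in Nut 1h (log2 fold change 2.19, SE 0.13, adjusted p = 3.54e-08). MDM2 kept this call under all 16 alternative settings, with log2 fold changes from 1.51 to 2.34. CDKN1A was not called in Nut 1h (0.05 on the log2 scale, adjusted p = 0.704) except with an offset for GC content (0.70). Of 10 colon epithelium markers 7 were tested, and the summed normalized counts of the 10 were between 164271 and 193500 in Nut 0h, 112021 and 121899 in Nut 1h, and 206203 and 247156 in Nut 10h. The keratins KRT8, KRT18 and KRT19 supplied most of this sum. In Nut 1h the markers did not move together: EPCAM (0.46 on the log2 scale) and CDH1 (0.51) were called higher, and KRT8, KRT18, KRT19 and CDX2 lower (-1.29 to -0.36), of which CDH1 and CDX2 kept their call with that offset. CDX2 lay between 430.4 and 1331 normalized counts, and the differentiation markers VIL1 and LGALS4 at or below 14.5. The summed normalized counts of 6 leukocyte markers were between 26.3 and 80.2 in Nut 0h, where LYZ supplied most of them, and between 4.83 and 8.38 in the Nutlin-3a libraries. PTPRC was at 1.86 at most. Those of 7 fibroblast markers lay between 1351 and 1406 in Nut 0h, 789 and 825 in Nut 1h, and 1215 and 1314 in Nut 10h and were nearly all COL1A1, with PDGFRA, DCN and LUM at 0. Those of 3 endothelial markers lay between 21.6 and 27.1 in Nut 0h, 17.1 and 26.4 in Nut 1h, and 30.0 and 80.03 in Nut 10h. The part of these shifts in the results was not tested, and in bulk RNA fewer cells of a type and less RNA per cell cannot be told apart.

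Nut 10h replicate 2 stood apart in a set of genes nearly silent elsewhere. In a count made after the data were seen, 83 genes had at least 15 reads in it and over 4 times the highest count of the other 5 libraries, against 0 to 6 genes for each other library. Among them were the endothelial marker KDR, with 66 reads against 10 at most elsewhere, the fibroblast marker COL1A2, with 25 against 1, and the secreted Wnt inhibitors SFRP1, with 73 against 1, and SFRP2, with 164 against 2. Without this library, DKK1, AXIN2 and TCF7 were at 0.85, -0.69 and -0.47 on the log2 scale in Nut 10h against Nut 0h. Against Nut 1h, the values were 0.67 for DKK1, 0.84 for RNF43, 0.60 for ZNRF3 and 0.92 for AXIN2. Those of NKD1, TCF7 and CTNNB1 were 0.88, 0.46 and -0.16.

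In Nut 1h the log2 fold changes of all genes also followed the GC content of the transcripts, so results of Nut 1h are given a further time with an offset fitted to that trend, called the GC offset.

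The members spanned a wide range of abundance. With counts scaled to library size (CPM) and divided by the length of the longest annotated transcript in kilobases (CPM per kb), a scale on which genes can be compared, the mean levels in Nut 0h were 211 for DKK1, 62.9 for CTNNB1, 14.5 for RNF43, 11.9 for TCF7, 5.17 for ZNRF3, 2.49 for AXIN2 and 0.65 for NKD1. Neighbours in this order did not overlap between the libraries of Nut 0h, and the order was the same in Nut 1h and in Nut 10h. The closest neighbours were RNF43, at 13.6 and 15.4 CPM per kb, and TCF7, at 11.3 and 12.5. The low value of NKD1 rests on a longest transcript of 17039 bases, and a shorter transcript would give a higher one.

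The stem cell markers and LEF1 were not detectable at this depth. LGR5, the R-spondin receptor of crypt stem cells (chr12:71833578-71980090, plus strand, GRCh37), had 1 read in each Nut 0h library and 0 in the other 4. LEF1, a nuclear partner of beta-catenin (chr4:108968701-109090112, minus strand), had 1 read in Nut 0h replicate 1 and 0 elsewhere, and ASCL2, the transcription factor of crypt stem cells (chr11:2289728-2291818, minus strand), had 1 read in Nut 10h replicate 2 and 0 elsewhere. At 0 reads, up to 3 are still possible from counting error alone, or between 0.0846 and 0.115 CPM in these libraries. No expression and expression below this limit cannot be told apart. All 6 libraries were at or under this limit for the 3 genes, so no fold change is given.

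**Figure D1:**
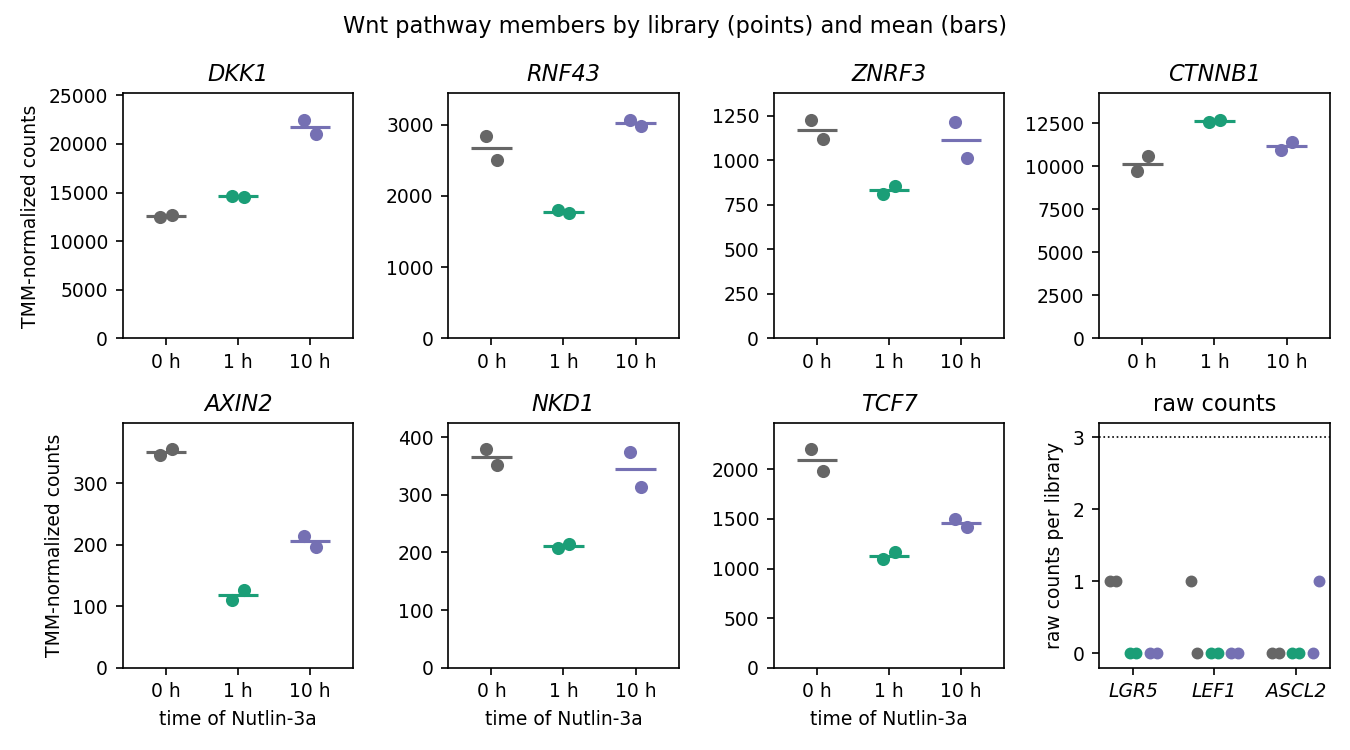
TMM-normalized counts of the 7 tested members in each library (points) with the mean of the 2 replicates (bars), against the time of Nutlin-3a in hours; each vertical axis starts at 0. The last panel gives raw counts of LGR5, LEF1 and ASCL2 by condition (grey Nut 0h, green Nut 1h, purple Nut 10h), all at 0 or 1 and under the dotted line of 3 counts; DKK1 was highest in Nut 10h, whereas AXIN2, NKD1, RNF43, ZNRF3 and TCF7 were lowest in Nut 1h.

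DKK1, the secreted antagonist, was the one member called higher in Nut 10h than in Nut 0h. Its promoter sequence is shown because it is one of the members' promoters that hold the letters of a TCF/LEF motif, the recognition sequence of beta-catenin's nuclear partners. The sequence covers the 250 bases before the gene start at chr10:52314031-52314280, plus strand, in GRCh38.p14, from RefSeq, with the motif in capitals:
DKK1 promoter: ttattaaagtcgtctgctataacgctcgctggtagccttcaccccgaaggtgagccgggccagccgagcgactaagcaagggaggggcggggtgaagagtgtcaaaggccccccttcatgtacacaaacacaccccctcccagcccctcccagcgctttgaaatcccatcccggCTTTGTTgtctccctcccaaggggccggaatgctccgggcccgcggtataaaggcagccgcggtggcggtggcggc
The motif, searched as CTTTGAT or CTTTGTT on both strands, begins 76 bases before the start, and 6.6% of 35116 RefSeq promoter windows of this length hold it. A match is a description of letters and not evidence of binding.

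DKK1 (chr10:54074041-54077802, plus strand, GRCh37) had normalized counts (scaled by TMM to a common library size) of 12492 and 12641 in Nut 0h, 14638 and 14579 in Nut 1h and 22497 and 21066 in Nut 10h. The Nut 10h libraries lay above all others, and the replicates of Nut 0h and of Nut 1h nearly coincided. Against Nut 0h, DKK1 was 1.73-fold higher in Nut 10h (log2 fold change 0.79, SE 0.09, adjusted p = 1.36e-05), and this call held under all 16 alternative settings, with log2 fold changes between 0.75 and 0.85. Against Nut 1h, it was 1.49-fold higher in Nut 10h (log2 fold change 0.58, SE 0.09, adjusted p = 5.77e-05), and with the GC offset that log2 fold change was 1.00. The small difference between Nut 1h and Nut 0h (log2 fold change 0.22, SE 0.09, adjusted p = 0.0448) did not hold. It missed the threshold whichever of the 6 libraries was left out (log2 fold changes 0.18 to 0.22) and in DESeq2 (0.17), with RLE size factors (0.19), with no low-count filter (0.17) and with the 2 conditions alone (0.18). With the GC offset it turned to -0.24 (adjusted p = 0.018). DKK1 shares 227 exon bases with PRKG1-AS1 on the other strand, which had at most 93 counts in any library.

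RNF43 and ZNRF3, the membrane ubiquitin ligases that clear Frizzled receptors, were both called lower in Nut 1h than in Nut 0h, RNF43 with and ZNRF3 without the GC offset, and neither passed the test between Nut 10h and Nut 0h. RNF43 (chr17:56431037-56494956, minus strand) had normalized counts of 2838 and 2499.8 in Nut 0h, 1796 and 1754 in Nut 1h and 3071 and 2977 in Nut 10h. The Nut 1h libraries were the lowest, and those of Nut 10h lay just above those of Nut 0h. RNF43 fell 1.5-fold from Nut 0h to Nut 1h (log2 fold change -0.59, SE 0.10, adjusted p = 8.92e-05), also with the GC offset (-0.52). From Nut 1h to Nut 10h it rose 1.70-fold (log2 fold change 0.77, SE 0.10, adjusted p = 7.16e-06, 0.65 with the GC offset), while the difference between Nut 10h and Nut 0h was 0.18 on the log2 scale, with a 95% interval of -0.02 to 0.38 and an adjusted p of 0.171. RNF43 shares 4326 exon bases with another protein-coding gene on the same strand. That gene is absent from the count matrix, so the level of RNF43 alone is uncertain.

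ZNRF3 (chr22:29279560-29453476, plus strand) had normalized counts of 1227 and 1117 in Nut 0h, 808 and 856 in Nut 1h and 1215 and 1013 in Nut 10h. Both Nut 1h libraries lay below the other 4, and Nut 0h and Nut 10h overlapped. It was called lower in Nut 1h than in Nut 0h (log2 fold change -0.50, SE 0.11, adjusted p = 0.00137), but with the GC offset the log2 fold change was -0.20 and the adjusted p 0.0695. Between Nut 10h and Nut 1h the log2 fold change was 0.42 (SE 0.11, adjusted p = 0.00411), which missed the threshold without Nut 1h replicate 1 (0.37) and with the GC offset (0.09). Nut 10h differed from Nut 0h by -0.07 (0.07 without Nut 10h replicate 2), with a 95% interval of -0.31 to 0.16 and an adjusted p of 0.665.

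CTNNB1 was within 1.25-fold of its Nut 0h mean at both times. The gene (chr3:41236232-41301587, plus strand) had normalized counts of 9709.6 and 10580.5 in Nut 0h, 12587 and 12704 in Nut 1h and 10915 and 11412 in Nut 10h, with the Nut 1h libraries highest and Nut 0h lowest. The log2 fold change of 0.32 in Nut 1h (SE 0.09, adjusted p = 0.00685) missed the threshold when Nut 0h replicate 1 (0.25) or Nut 1h replicate 2 was left out (0.30), and with the GC offset it was -0.15 (adjusted p = 0.0833). In Nut 10h the difference from Nut 0h was 0.14, with a 95% interval of -0.06 to 0.33 and an adjusted p of 0.283. Between Nut 10h and Nut 1h it was -0.18 (adjusted p = 0.0937), or 0.26 with the GC offset, where it was called (adjusted p = 0.00442).

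AXIN2, the feedback scaffold of the destruction complex that is widely read as a gauge of beta-catenin activity, showed the largest fall of the 7 tested members in both comparisons with Nut 0h. AXIN2 (chr17:63524681-63557766, minus strand) had normalized counts of 345 and 355 in Nut 0h, 110.4 and 126 in Nut 1h and 215 and 196 in Nut 10h. The 3 conditions did not overlap: Nut 0h was highest, Nut 1h lowest and Nut 10h between them. From Nut 0h to Nut 1h AXIN2 fell 2.97-fold (log2 fold change -1.57, SE 0.14, adjusted p = 6.45e-07), and from Nut 1h to Nut 10h it rose 1.75-fold (log2 fold change 0.80, SE 0.15, adjusted p = 0.000253). In Nut 10h it remained 1.70-fold below Nut 0h (log2 fold change -0.77, SE 0.13, adjusted p = 0.000517). These 3 calls kept their direction and their side of the threshold under all 16 alternative settings. The GC offset gave -1.31, 0.50 and -0.81 in the same order. AXIN2 shares 1316 exon bases with another gene on the same strand, so its own level is uncertain. That other gene had at most 1 count in any library.

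NKD1, the Dishevelled-binding feedback inhibitor, fell in Nut 1h and rose again to Nut 10h, where it overlapped Nut 0h. NKD1 (chr16:50582307-50683160, plus strand) had normalized counts of 379 and 352 in Nut 0h, 208 and 214 in Nut 1h and 374 and 314 in Nut 10h. The Nut 1h libraries lay apart below the others, whereas Nut 0h and Nut 10h overlapped. It was 1.73-fold lower in Nut 1h than in Nut 0h (log2 fold change -0.79, SE 0.13, adjusted p = 0.000121) and 1.63-fold higher in Nut 10h than in Nut 1h (log2 fold change 0.71, SE 0.13, adjusted p = 0.000329), and both calls held with the GC offset (-0.66 and 0.52). Nut 10h differed from Nut 0h by -0.09 (0.05 without Nut 10h replicate 2), with a 95% interval of -0.36 to 0.18 and an adjusted p of 0.646.

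TCF7, which encodes the beta-catenin partner TCF1, fell in Nut 1h and was still lower in Nut 10h. Of the 7 promoter windows found for 5 of the members (DKK1, RNF43, CTNNB1, TCF7 and LEF1), the downstream one of the pair for TCF7 was the other to hold the TCF/LEF motif, here on the minus strand and beginning 50 bases before that start (chr5:134123368-134123617, plus strand, GRCh38.p14, from RefSeq, with the motif in capitals):
TCF7 downstream promoter: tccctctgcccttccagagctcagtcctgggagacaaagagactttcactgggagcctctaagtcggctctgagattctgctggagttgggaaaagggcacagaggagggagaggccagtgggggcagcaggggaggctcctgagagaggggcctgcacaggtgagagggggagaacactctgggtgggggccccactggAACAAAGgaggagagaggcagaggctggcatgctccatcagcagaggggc
Exact p53 half-sites, searched by the consensus of that name, were found in none of the 7 windows and in 5.57% of the 35116. At that share most windows hold none, so their absence here sets no member apart. Sites outside these 250 bases and inexact sites were not searched. The authors list DKK1 among the genes that they linked to distal enhancers bound by p53. Promoters of AXIN2, LGR5, ZNRF3, NKD1 and ASCL2 were not used here.

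TCF7 (chr5:133450372-133487556, plus strand, GRCh37) had normalized counts of 2200.3 and 1986 in Nut 0h, 1092 and 1168 in Nut 1h and 1499 and 1418 in Nut 10h. The conditions did not overlap, with Nut 0h highest, Nut 10h in the middle and Nut 1h lowest. The fall from Nut 0h was 1.85-fold in Nut 1h (log2 fold change -0.89, SE 0.10, adjusted p = 3.17e-06, -0.48 with the GC offset) and 1.44-fold in Nut 10h (log2 fold change -0.52, SE 0.10, adjusted p = 0.00108), and both held under all 16 alternative settings. Between Nut 1h and Nut 10h, the log2 fold change of 0.37 (SE 0.10, adjusted p = 0.0044) missed the threshold without Nut 1h replicate 1 (0.31) and was -0.07 with the GC offset. TCF7 shares 210 exon bases with SKP1 on the other strand, which reached 4519 counts, and the strand setting of the counting is not given in the sources used here, so part of its reads could belong to SKP1.

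At 10 h the members moved in both directions. In Nut 10h against Nut 0h, 3 of the 7 tested members were called at an adjusted p of at most 0.05, where 29.0% of all tested genes were called. DKK1 was higher (14.1% of all genes were called higher), AXIN2 and TCF7 were lower (14.9% of all genes), and RNF43, ZNRF3, CTNNB1 and NKD1 did not pass the test. With the GC offset the same 3 members were called, beside 39.3% of all genes (17.0% higher and 22.3% lower). The median log2 fold change of the 7 members was -0.07, against 0.00 over all tested genes.

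In Nut 1h against Nut 0h all 7 tested members were called, 2 higher (DKK1 and CTNNB1) and 5 lower (RNF43, ZNRF3, AXIN2, NKD1 and TCF7), in a comparison in which 66.9% of all tested genes were called, 34.5% higher and 32.3% lower. Their median was -0.59, against 0.05 over all tested genes, and with the GC offset the members' median was -0.48. With the GC offset the falls of AXIN2, NKD1, RNF43 and TCF7 kept their call, DKK1 was called lower, and CTNNB1 and ZNRF3 were not called, beside 45.4% of all genes called (20.6% higher and 24.8% lower). Mitochondrial genes took 8.44% and 8.15% of the counts in Nut 1h, against 4.99% and 6.18% in Nut 0h and 6.45% and 7.06% in Nut 10h. The part of this share in the Nut 1h values was not tested. Between Nut 10h and Nut 1h, 6 members were higher and none was lower in edgeR's quasi-likelihood test, also at an unadjusted p under 0.05 and in DESeq2, beside 67.9% of all genes called, 34.2% higher and 33.7% lower. Of these 6, 4 kept their call with the GC offset, ZNRF3 and TCF7 lost it, and CTNNB1 was called higher in addition, beside 57.8% of all genes called (28.8% higher and 29.0% lower). Without the offset the median of the 7 members was 0.58, against -0.02 over all tested genes, and with it the members' median was 0.50. The comparisons share the libraries of a condition and are not independent of each other.

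**Figure D2:**
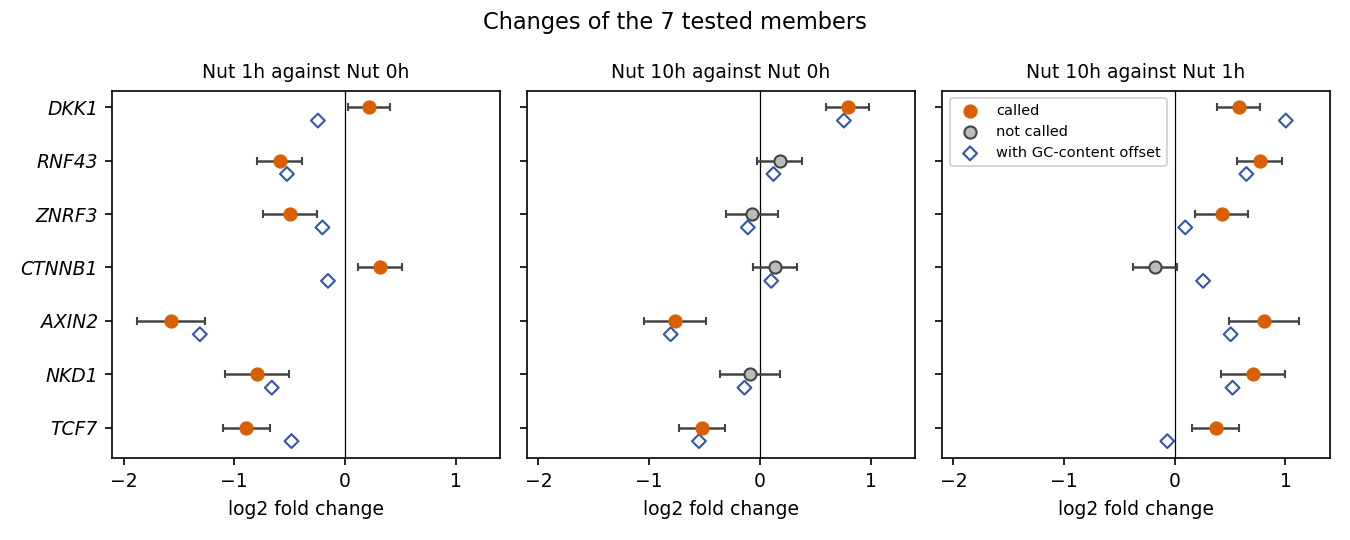
Log2 fold changes of the 7 tested members (circles, orange where called at an adjusted p of at most 0.05 and grey where not) with 95% intervals in the 3 comparisons; open diamonds give the same fit with the GC-content offset. DKK1 alone was called higher in Nut 10h against Nut 0h, AXIN2 was called lower against Nut 0h at both times, and for DKK1 and CTNNB1 in Nut 1h the diamond lies on the other side of 0.

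The 1 h comparison followed the base composition of the transcripts. Over all tested genes with a known composition, the median log2 fold change in Nut 1h fell from 0.90 for transcripts under 35% GC to -1.48 for those of 65% GC and above, and with an offset fitted to this trend in each library the medians lay between -0.06 and 0.01. In Nut 10h against Nut 0h the medians ran from 0.05 to -0.14. DKK1 and CTNNB1 have 43.7% and 43.5% GC, in the band from 40 to 45% where the quartiles in Nut 1h were 0.22 and 0.81, and their values of 0.22 and 0.32 lay at and just above the lower quartile. The other 5 have between 50.7 and 54.9% GC, in the band from 50 to 55% with quartiles of -0.59 and 0.11. AXIN2, NKD1 and TCF7 lay below the lower quartile of their band, RNF43 lay at it and ZNRF3 inside the quartiles. What lies behind the trend was not tested.

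**Figure D3:**
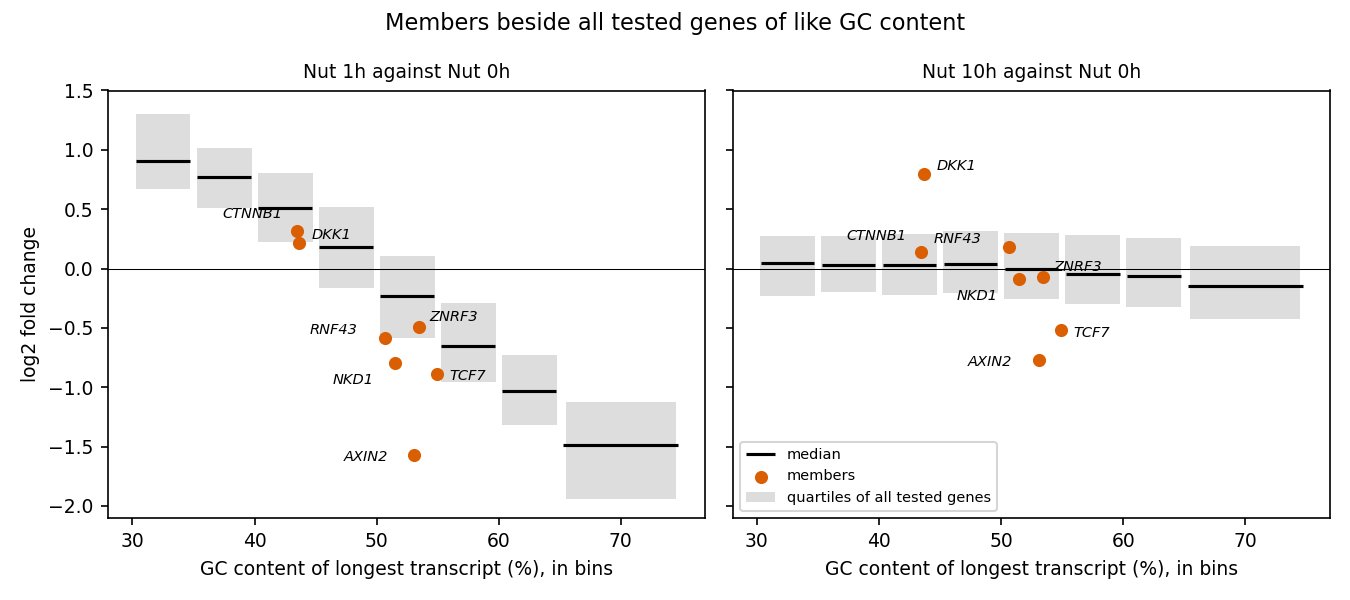
Log2 fold change against the GC content (%) of the longest transcript in Nut 1h (left) and Nut 10h (right), each against Nut 0h. Grey boxes span the quartiles of all tested genes in each band of GC content (the first and last bands are open-ended), black lines are their medians and orange points the 7 tested members; in Nut 10h, DKK1 lies above and AXIN2 and TCF7 lie below the quartiles of their bands.

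Outside the 10 members, 112 further Wnt pathway genes were listed, of which 85 were tested. In Nut 10h against Nut 0h, 16 were called higher and 17 lower, where the shares of all tested genes were 14.1% and 14.9%, with a median log2 fold change of -0.06 beside the 0.00 of all tested genes. With the GC offset 23 were higher and 24 lower (17.0% and 22.3% of all genes). Without Nut 0h replicate 1 fewer were called lower, and without Nut 10h replicate 2 more were called higher and fewer lower. In both of these fits fewer of all tested genes were called too. In Nut 1h, 17 were higher and 48 lower (34.5% and 32.3% of all genes), with a median of -0.54 beside 0.05. With the GC offset the median was -0.09, with 12 higher and 24 lower (20.6% and 24.8% of all genes). Of the 65 calls, 25 kept their sign and call. The 7 whose call changed sign are named with their lists and, TCF7L1 apart, were chosen after their values were seen. Between Nut 10h and Nut 1h, 47 were higher and 18 lower (34.2% and 33.7% of all genes). With the GC offset 29 were higher and 17 lower (28.8% and 29.0%), with 26 of the 65 calls keeping their sign and call. Without the offset fewer were lower when either Nut 1h library was left out, and fewer of all tested genes were called.

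Among the ligands and agonists, 17 of 25 were tested, and in Nut 10h 3 were higher and 1 lower (median -0.07). PORCN, the acyltransferase that lipidates Wnt ligands so that they can be secreted, had 390.2 ± 12.6 normalized counts (mean ± SD, n = 2) in Nut 0h and 957 ± 3.67 in Nut 10h, a 2.45-fold rise (log2 fold change 1.29, SE 0.10, adjusted p = 3.86e-07). In Nut 1h, 1 ligand or agonist was higher and 12 were lower (median -0.90, and -0.08 with the GC offset). Of these 13 calls, 2 kept their sign and call with the GC offset. The ligand gene WNT10B had a log2 fold change of -0.93 in Nut 1h (adjusted p = 1.32e-05), which was -0.20 and not called with the offset, as was the fall of PORCN in Nut 1h (-0.55, and -0.05 with the offset). WLS, the carrier that brings Wnt ligands to the cell surface, was called higher in Nut 1h (0.27, adjusted p = 0.0261), a call lost with the offset (0.08), in DESeq2 (0.22), with no low-count filter (0.23) and without Nut 0h replicate 1 (0.18), Nut 1h replicate 1 (0.24) or Nut 1h replicate 2 (0.30). In Nut 10h its -0.20 (adjusted p = 0.143) was called lower with the offset (-0.26).

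Among the receptors, 15 of 17 were tested, and in Nut 10h 4 were higher and 3 lower (median -0.08). FZD1, a Frizzled receptor, went from 726 ± 19.0 normalized counts in Nut 0h to 501 ± 17.6 in Nut 1h and 388 ± 43.3 in Nut 10h, and it was called lower at both times (-0.54 and -0.90, adjusted p = 0.000757 and 3.48e-05), also with the GC offset. FZD2 had 1083 ± 79.2, 249 ± 28.7 and 761 ± 132 normalized counts. It fell in Nut 1h (log2 fold change -2.13, SE 0.14, adjusted p = 8.59e-08, -1.65 with the offset), and in Nut 10h its log2 fold change was -0.51 (adjusted p = 0.00779), a call lost without Nut 10h replicate 2 (-0.33). FZD6, a Frizzled receptor tied mainly to non-canonical signalling, was higher in Nut 10h (0.58, adjusted p = 0.000629), and its difference of 0.67 in Nut 1h turned to -0.11 with the offset. The co-receptor LRP6, to which DKK1 binds, was higher in Nut 1h (0.90, adjusted p = 1.53e-05, 0.29 with the offset), while in Nut 10h its log2 fold change was 0.27 with a 95% interval of 0.01 to 0.52 (adjusted p = 0.114). That difference was called higher with the GC offset (0.24) and when Nut 0h replicate 2 (0.38) or Nut 10h replicate 1 (0.38) was left out. In Nut 1h, 4 receptors were higher and 6 lower (median -0.01, and -0.29 with the offset). Of these 10 calls, 5 kept their sign and call with the offset. There 2 were higher and 5 lower. Among them were LRP5, a co-receptor beside LRP6, which went from -0.85 to 0.21, and the Wnt receptor RYK, from 0.52 to -0.29, both called with opposite signs in the 2 fits.

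Of the other secreted and surface inhibitors, 7 of 17 were tested (median -0.14 in Nut 10h and -0.94 in Nut 1h). With the GC offset the Nut 1h median was -0.68. In Nut 10h 1 of the 7 was called, and with the GC offset 3 were, 2 of them higher. The one called in both fits was NOTUM, an extracellular enzyme that removes the lipid from Wnt ligands and a feedback target of the pathway, at 820.2 ± 151 normalized counts in Nut 0h and 508 ± 116 in Nut 10h (log2 fold change -0.69, SE 0.15, adjusted p = 0.00389). In Nut 1h it had 170.1 ± 9.17 (log2 fold change -2.27, SE 0.17, adjusted p = 2.2e-07, -0.94 with the offset). KREMEN2, a receptor that acts with DKK1 in removing LRP6 from the surface, had 1652 ± 359, 335 ± 23.4 and 1852 ± 474 normalized counts at the 3 times. It was lower in Nut 1h (log2 fold change -2.31, SE 0.18, adjusted p = 2.47e-07, -0.68 with the offset) and was not called in Nut 10h (0.16, adjusted p = 0.487), where the log2 fold change ran from -0.12 to 0.42 over the alternatives and was called higher with the GC offset (0.24) and without Nut 10h replicate 2 (0.42). KREMEN2 shares 357 exon bases with PKMYT1 on the other strand, which reached 7394 counts. In Nut 1h 4 of the 7 inhibitors were lower and the other 3 did not pass the test, and with the offset 3 of the 4 calls kept their sign and call.

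All 17 signal transducers and destruction complex genes were tested. In Nut 10h 3 were higher and 3 lower (median 0.08). AMER1, a membrane scaffold of the destruction complex, rose from 254 ± 12.4 to 429 ± 24.0 normalized counts (log2 fold change 0.75, SE 0.12, adjusted p = 0.000283), and GSK3B, the kinase that marks beta-catenin for degradation, from 2187 ± 61.5 to 3022 ± 109.5 (log2 fold change 0.47, SE 0.09, adjusted p = 0.00129). SIAH1, a p53-inducible ubiquitin ligase that can degrade beta-catenin, was called lower (-0.53, adjusted p = 0.0241), a call lost in DESeq2 (-0.55) and when Nut 0h replicate 1 (-0.39) or Nut 10h replicate 2 (-0.50) was left out. SIAH1 shares 1793 exon bases with LONP2 on the other strand, which reached 3921 counts, so its value is uncertain. In Nut 1h 7 were higher and 8 lower (median 0.27, and 0.003 with the offset). Of these 15 calls, 3 kept their sign and call with the offset. With it 5 were higher and 3 lower. The calls of AXIN1, a scaffold of the destruction complex (-0.90 to 0.24), of the signal transducer DVL2 (-0.61 to 0.23) and of the kinase CSNK1A1 (0.32 to -0.33) changed sign. CSNK1A1 shares 4194 exon bases with a non-coding RNA gene on the same strand, which reached 631 counts, so its value is uncertain. In Nut 1h, GSK3B was higher by 0.72 on the log2 scale (adjusted p = 7.73e-06, 0.18 with the offset). The call of GSK3B held with the offset but was lost when the replicate block was added to it (0.18). APC2, a relative of the APC scaffold, was lower (-1.74, adjusted p = 7.74e-07), a value that was -0.08 and not called with the offset. APC2 shares 391 exon bases with a non-coding RNA gene and 55 with C19orf25, both on the other strand. These reached 198 and 2674 counts, so the value of APC2 is uncertain.

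Among the nuclear partners, 14 of 16 were tested. With LEF1 undetected, the TCF/LEF family was represented by TCF7L2, at 40.9 CPM per kb in Nut 0h, TCF7 at 11.9 and TCF7L1 at 8.17. TCF7L1, mostly a repressor of Wnt targets, fell from 805 ± 158 to 549.6 ± 36.3 normalized counts in Nut 10h (log2 fold change -0.55, SE 0.13, adjusted p = 0.00624), a call lost without Nut 0h replicate 1 (-0.34), and in Nut 1h its -0.65 turned to 0.28 with the GC offset. TCF7L2, the main TCF factor of the intestine, was not called in Nut 10h (-0.08, 95% interval -0.28 to 0.13, adjusted p = 0.599), and its rise of 0.44 in Nut 1h was 0.11 and not called with the offset. HBP1, a repressor that binds TCF factors, was higher in Nut 10h (log2 fold change 0.55, SE 0.12, adjusted p = 0.00334), and it shares 1142 exon bases with COG5 on the other strand, which reached 1028 counts. CTNNBIP1, which keeps beta-catenin from TCF factors, was lower in Nut 1h (log2 fold change -1.35, SE 0.15, adjusted p = 4.36e-06, -0.76 with the offset). In Nut 10h it had 1593 ± 217 normalized counts against 1232 ± 310.5 in Nut 0h, a log2 fold change of 0.37 that was not called (adjusted p = 0.0705). It was called higher in 7 of the 16 alternatives. Among them were the replicate block (0.38), the GC offset (0.35) and the fits without Nut 0h replicate 1 (0.65) or Nut 10h replicate 2 (0.52). Of the 14, 2 were higher and 5 lower in Nut 10h (median -0.22). In Nut 1h, 2 were higher and 9 lower (median -0.56, and -0.02 with the offset). Of these 11 calls in Nut 1h, 4 kept their sign and call with the offset. The 2 called higher with it were TCF7L1 and BCL9L, a co-activator of beta-catenin (-0.79 to 0.25), both called lower without it, and 4 were lower.

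Other transcriptional targets of the pathway moved both ways. In Nut 10h, 4 of the 15 that were tested out of 20 were higher and 4 lower (median 0.09). EPHB3, a crypt receptor for ephrins, had normalized counts of 445 and 454 in Nut 0h, 135 and 128 in Nut 1h and 726 and 576 in Nut 10h, lower in Nut 1h (log2 fold change -1.76, SE 0.15, adjusted p = 3.32e-07, -0.76 with the offset) and higher in Nut 10h (log2 fold change 0.54, SE 0.12, adjusted p = 0.00512) than in Nut 0h. BAMBI, a decoy receptor for TGF-beta ligands, was lower in Nut 10h (-0.73, adjusted p = 0.00883), a call lost in DESeq2 (-0.75) and without Nut 0h replicate 1 (-0.53). CD44, a hyaluronan receptor, was higher in Nut 1h (log2 fold change 0.71, SE 0.09, adjusted p = 1.49e-05, 0.30 with the offset), and its 0.25 in Nut 10h (adjusted p = 0.0588) was called higher in 4 of the 16 alternatives, the GC offset among them (0.21). In Nut 1h 3 of the 15 were higher and 9 lower (median -0.38, and -0.12 with the offset). Of these 12 calls, 8 kept their sign and call with the offset, with which 3 were higher and 6 lower.

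**Figure D4:**
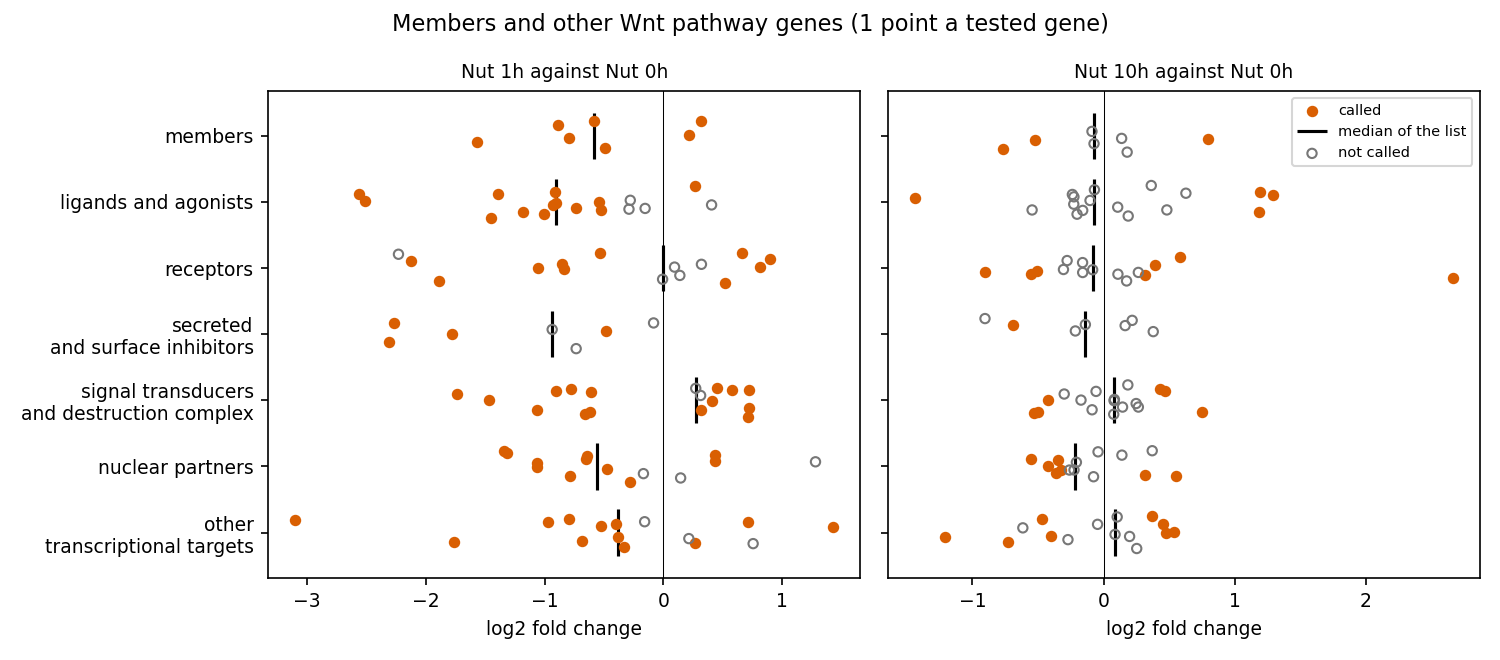
Log2 fold changes of the 7 tested members and of the 85 other tested Wnt pathway genes, by list, in Nut 1h and in Nut 10h, each against Nut 0h. Each point is a gene (orange where called at an adjusted p of at most 0.05), and black bars are the medians. Vertical scatter within a row has no meaning. Without the GC offset, the list medians run from -0.94 to 0.27 in Nut 1h and from -0.22 to 0.09 in Nut 10h. With it, those in Nut 1h run from -0.68 to 0.003.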

How the data were processed

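RNA-seq of 6 HCT116 libraries was analysed. The authors trimmed paired-end reads with Trim Galore (0.6.6), aligned them to GRCh37.p13 with STAR (2.7.0f) and counted them per gene with featureCounts of Subread (2.0.0). The deposited matrix holds these raw counts, and the authors' table of their own comparisons, with fold changes and p-values, was used for gene symbols alone. The strand setting and the treatment of multimapping reads are not given in the sources used here, so antisense and overlapping genes are uncertain. From the counts, genes were filtered with filterByExpr, scaled with TMM and tested with edgeR 4.0.16 (glmQLFit and glmQLFTest, condition as the only term, all 6 libraries, 3 residual degrees of freedom), with Benjamini-Hochberg adjustment over 16565 genes and calls at an adjusted p of at most 0.05. All p-values in the text are from this two-sided test unless another setting is named. The script was tested on simulated data.

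The alternatives were RLE or upper-quartile factors, no filter, a filter of 1 CPM in 2 libraries, DESeq2 1.42.0, voom in limma 3.58.1, the 2 conditions alone, the replicate number as a block, a GC-content offset (loess, span 0.4) with and without the block, and leaving out each library. GC content, length and positions came from GENCODE on GRCh37, and promoter windows from RefSeq on GRCh38.p14. Libraries of a condition differed by more than sampling noise (chi-square per degree of freedom of 5.13 to 16.7), so none was counted as a duplicate. The members and lists were chosen with earlier results of these data known. All members were named, and of each list the gene with the largest rise and fall in each comparison with Nut 0h among those called whose mean reached 100 normalized counts.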

Additional observations from a re-analysis of the deposited data

How the results depend on the processing

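With 2 libraries per condition, small differences lie at the limit of the test, and LGR5, LEF1 and ASCL2, with 0 or 1 read a library, were removed by the filter on low counts; no expression and expression too low for this depth cannot be told apart. In Nut 10h against Nut 0h, all 7 tested members kept their call or lack of one under all 16 alternatives. In Nut 1h against Nut 0h, AXIN2, NKD1, RNF43 and TCF7 kept theirs under all 16. The offset for GC content turned the Nut 1h values of CTNNB1 to -0.15, DKK1 to -0.24, FZD6 to -0.11, HBP1 to -0.10, SIAH1 to -0.46 and TCF7L1 to 0.28. It turned the Nut 10h against Nut 1h values of CTNNB1 to 0.26, FZD6 to 0.65, GSK3B to 0.26, TCF7 to -0.068 and TCF7L1 to -0.83, and the offset together with the replicate block gave the same values to within 0.01 (SIAH1 -0.47). With the offset, 24 other Wnt pathway genes were lower in Nut 1h, with or without the block, 11 were higher with the block, and 29 were higher in Nut 10h than in Nut 1h. With both, 7304 genes were called in Nut 1h in place of 11077. DESeq2 called 10 other Wnt pathway genes lower in Nut 10h than in Nut 1h, in place of 18, beside 9544 of all genes called in place of 11246. The causes of these shifts were not tested. Leaving out each library gave 7 to 20 other Wnt pathway genes lower in Nut 10h than in Nut 0h and 10 to 18 lower in Nut 10h than in Nut 1h.

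Whether the replicate numbers pair the samples is not settled by the counts. The correlation of the deviations of same-numbered libraries was 0.45 between Nut 0h and Nut 10h. It was -0.31 between Nut 0h and Nut 1h and -0.28 between Nut 1h and Nut 10h. With the replicate block 10979 genes were called in Nut 1h and 4893 in Nut 10h against Nut 0h, and of the members DKK1 in Nut 1h was no longer called. Outside the members, CTNNBIP1 was called higher in Nut 10h against Nut 0h with the block (0.38).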
